A study of Drosophila melanogaster with 6 samples.

Results

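The genes described here encode the DNA replication machinery, the proteins that license origins, unwind the DNA, copy it and supply the nucleotides. They were taken by symbol from a list of 38 genes, and all 38 were among the 16727 genes counted in whole Drosophila larvae 48 hr after egg laying. The CG1603PBac larvae were homozygous for the PiggyBac transgene PBac[SAstopDsRed]LL06826, which sits in an intron of CG1603 and carries splice sites and stop codons meant to truncate the product. CG1603 encodes a C2H2 zinc finger protein. The wt larvae carried no such insertion, were of the same age and are described in the labels only as wt. The insertion had been backcrossed to w1118 for 6 generations, homozygotes were picked by the lack of a fluorescent balancer chromosome, and they arrest as second instar larvae. The insertion is a single allele, and the number and sex of the larvae in each sample are not given in the sources used here. Poly(A) RNA from 3 CG1603PBac and 3 wt samples was sequenced, and the labels call the samples of each genotype biological replicates.

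Replication begins when the origin recognition complex, together with Cdc6 and Cdt1, loads the MCM helicase onto DNA in G1. Cdc45 and the GINS complex turn the loaded helicase into a moving fork, where polymerase alpha-primase starts each strand and polymerases delta and epsilon extend it on the PCNA clamp. In the fly larva, imaginal discs and neuroblasts replicate DNA in mitotic cycles, while most larval tissues such as fat body, midgut, muscle and salivary gland grow by endoreplication, in which S phases follow each other without division. Many replication genes are known targets of the E2F and DREF transcription factors in the fly.

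Total gene counts were 27100927 to 36016914 in CG1603PBac libraries and 33377603 to 34883345 in wt libraries. Levels are given as CPM, the count of a gene relative to the library's total after TMM scaling, a normalization that assumes most genes do not change, and the TMM factors were 1.14 to 1.15 in CG1603PBac and 0.864 to 0.887 in wt libraries. The share of reads left unaligned was 31.4 ± 0.445% in CG1603PBac and 8.77 ± 0.354% in wt libraries (SD, n = 3 each). CG1603 itself had 30.8, 27.6 and 26.1 CPM in CG1603PBac larvae, against 20.3, 17.0 and 19.3 CPM in wt larvae, and rose (log2 fold change 0.57 ± 0.13, adjusted p = 0.000362). These counts cover the whole gene and do not show whether a transcript was truncated, so they do not check the labels. Throughout, log2 fold changes are CG1603PBac over wt with their standard errors, and adjusted p-values come from edgeR's quasi-likelihood test with Benjamini-Hochberg adjustment over 11306 genes, with a threshold of 0.05.

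The replication genes were lower in CG1603PBac larvae almost throughout. Of the 38 genes, 37 had enough counts to be tested, 34 fell, none rose and 3 (Orc5, Psf3 and RpA-70) did not pass the threshold. Among all genes tested, 34.9% fell and 34.8% rose by the same rule. A fall of more than 2-fold was called for 26 members, against 15.0% of all genes. In 34 members every CG1603PBac library lay below every wt library, which held for 36.3% of all genes, while the reverse order, seen in 37.5% of all genes, occurred in none of the members. The median log2 fold change of the members was -1.70, a level 3.26-fold lower in CG1603PBac larvae, and that of all genes was 0.06. Summed over the members, the level was 426, 425 and 433 CPM in CG1603PBac larvae, against 1231, 1249 and 1223 CPM in wt larvae. Since whole larvae were measured, fewer replicating cells and less RNA per cell cannot be told apart.

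**Figure D1:**
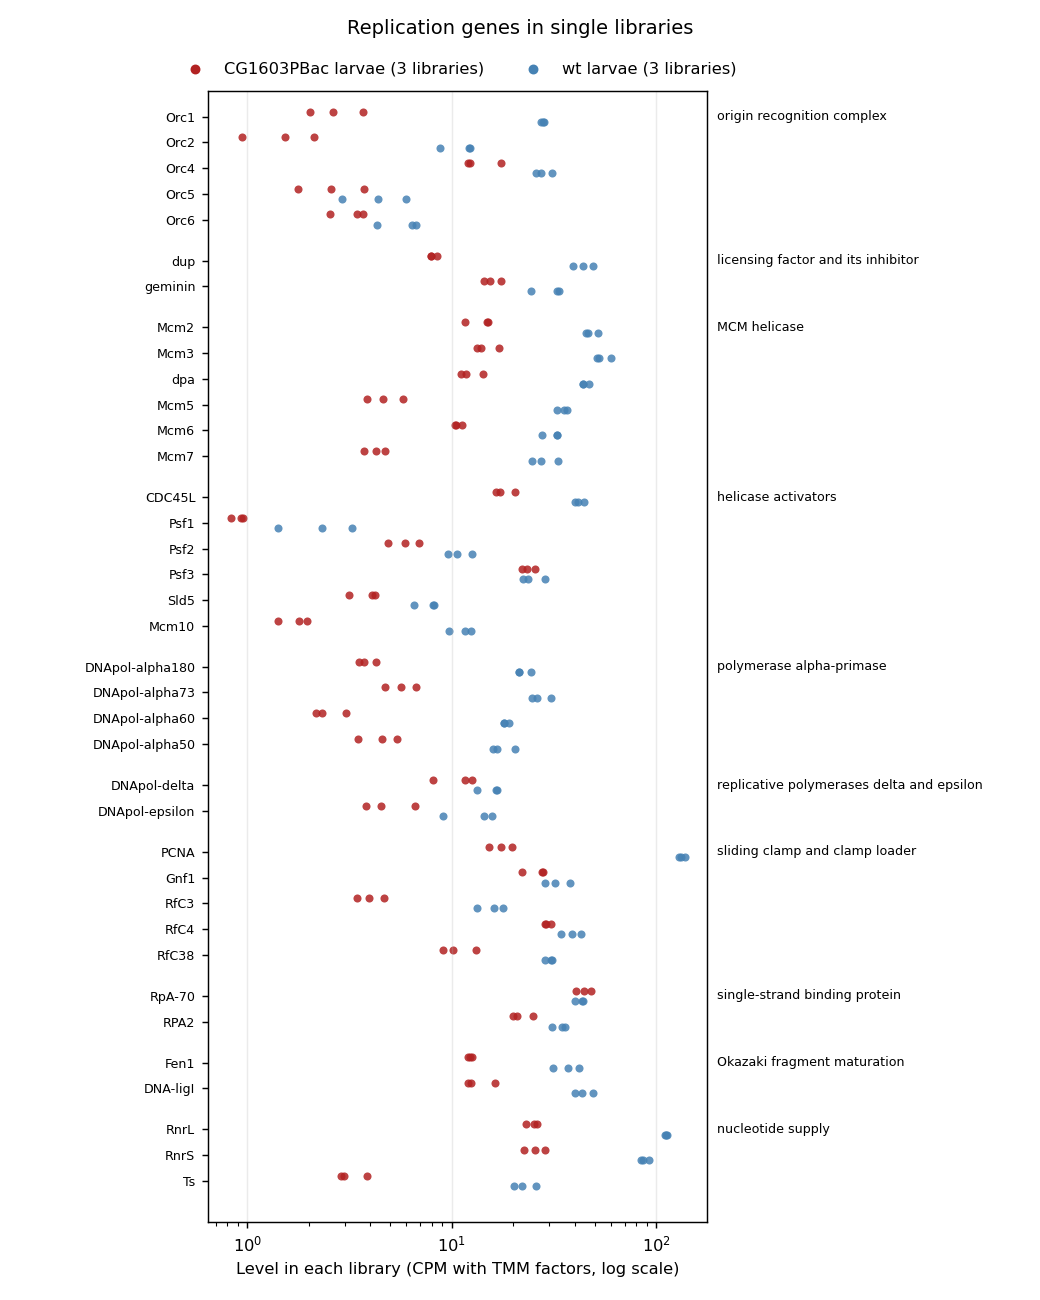
Level of each of the 37 tested replication genes in each library, in CPM with TMM factors on a log axis, with CG1603PBac libraries in red just above wt libraries in blue and the genes grouped by role. The red and blue points separate for 34 genes and overlap for Orc5, Psf3 and RpA-70.

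Within the origin recognition complex (ORC), which marks the sites where replication can begin, the subunits differed widely in how far they fell. Orc1, the ATPase subunit whose level is tied to the cell cycle in the fly, had 3.70, 2.02 and 2.62 CPM in CG1603PBac larvae, against 27.4, 28.3 and 27.9 CPM in wt larvae. This 10.1-fold fall (log2 fold change -3.33 ± 0.19, adjusted p = 1.51e-12) was the largest of any member. Orc2, a core subunit, had 2.12, 0.940 and 1.53 CPM in CG1603PBac larvae, against 8.76, 12.2 and 12.2 CPM in wt larvae, and fell 7.24-fold (log2 fold change -2.86 ± 0.29, adjusted p = 1.96e-08). Orc1 and Orc2 had the lowest fold changes of the measured subunits, and their libraries did not overlap between the genotypes. Orc4, another ATPase-fold subunit, had 12.3, 12.0 and 17.4 CPM in CG1603PBac larvae and 27.3, 31.0 and 25.8 CPM in wt larvae (log2 fold change -1.01 ± 0.15, adjusted p = 4.07e-06). Orc6, the smallest subunit, had 3.67, 2.54 and 3.45 CPM in CG1603PBac larvae and 6.70, 6.42 and 4.32 CPM in wt larvae (log2 fold change -0.85 ± 0.29, adjusted p = 0.0129). The Orc6 libraries did not overlap, but the call was lost without CG1603PBac replicate 2 (log2 fold change -0.71, adjusted p = 0.0665).

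Orc5 had 3.73, 1.77 and 2.58 CPM in CG1603PBac larvae and 4.35, 6.01 and 2.90 CPM in wt larvae, so the genotypes overlapped. Its log2 fold change of -0.72 ± 0.36 did not pass the threshold (adjusted p = 0.0828). It passed without wt replicate 3 (-0.96, adjusted p = 0.0222) and without CG1603PBac replicate 1 (-1.02, adjusted p = 0.0394). The gene for the ORC subunit Orc3, lat in the files, was listed at 0 in all 6 libraries and was not tested. All of its exonic bases are also covered on the same strand by CG34315, which was listed at 0 too, so no statement about its RNA is made.

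Loading of the helicase also needs dup, the fly Cdt1, and is blocked by geminin, which binds Cdt1. The gene dup had 7.95, 7.91 and 8.43 CPM in CG1603PBac larvae, against 49.2, 43.6 and 39.1 CPM in wt larvae, and fell 5.43-fold (log2 fold change -2.44 ± 0.13, adjusted p = 2.92e-13). Its inhibitor fell less. For geminin the libraries had 17.3, 15.5 and 14.4 CPM in CG1603PBac larvae and 32.7, 33.4 and 24.5 CPM in wt larvae (log2 fold change -0.94 ± 0.14, adjusted p = 3.64e-06). The ratio of dup counts to geminin counts within a library, which does not depend on the scaling between libraries, was 0.459, 0.512 and 0.584 in CG1603PBac larvae and 1.505, 1.31 and 1.596 in wt larvae. The pairs of genes used for such ratios were chosen after the values were seen, and the ratios were not tested. Over the 7 tested licensing genes, 6 fell and the median log2 fold change was -1.01.

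All 6 subunits of the MCM ring, the helicase that unwinds DNA at the fork, fell by more than 2-fold. Mcm5 fell most, with 4.63, 5.78 and 3.86 CPM in CG1603PBac larvae, against 35.4, 32.8 and 36.5 CPM in wt larvae (log2 fold change -2.88 ± 0.16, adjusted p = 6.08e-13). Mcm7 had 4.28, 3.73 and 4.74 CPM in CG1603PBac larvae, against 27.2, 33.0 and 24.8 CPM in wt larvae (log2 fold change -2.73 ± 0.17, adjusted p = 3.92e-12). For Mcm7, 81.7% of exonic bases lie opposite the antisense gene CR45871, and with the strand setting of the counting not given, reads of the 2 genes cannot be told apart. The other 4 subunits had milder falls, between 2.89-fold for Mcm6 and 3.71-fold for Mcm3. Mcm3 had 13.9, 16.9 and 13.2 CPM in CG1603PBac larvae and 59.9, 52.4 and 51.5 CPM in wt larvae (log2 fold change -1.89 ± 0.12, adjusted p = 5.02e-12). The gene dpa, the fly Mcm4, had 11.8, 11.1 and 14.3 CPM in CG1603PBac larvae and 44.1, 46.7 and 44.0 CPM in wt larvae (log2 fold change -1.86 ± 0.12, adjusted p = 1.33e-11). Mcm2 had 11.6, 14.8 and 15.0 CPM in CG1603PBac larvae and 52.1, 45.2 and 46.2 CPM in wt larvae (log2 fold change -1.79 ± 0.12, adjusted p = 2.78e-11). Mcm6 fell least of the ring, with 10.4, 11.3 and 10.5 CPM in CG1603PBac larvae and 32.7, 32.6 and 27.8 CPM in wt larvae (log2 fold change -1.53 ± 0.13, adjusted p = 1.14e-09).

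Because the ring holds its subunits in equal number, their levels were also compared per kb of exon. In CG1603PBac larvae they ran between 1.73 CPM per kb for Mcm7 and 5.35 CPM per kb for Mcm3, a range of 3.09-fold. The wt levels ran between 11.1 CPM per kb for Mcm6 and 19.9 CPM per kb for Mcm3, a range of 1.79-fold. The subunits were thus both lower and further apart in CG1603PBac larvae, and the change in range was not tested. The lower end of the CG1603PBac range is set by Mcm7, whose reads cannot be told apart from those of CR45871. Mcm5 was the next lowest, at 1.94 CPM per kb. Counts of Mcm5 relative to Mcm6 in the same library averaged 0.442 ± 0.0732 in CG1603PBac larvae and 1.13 ± 0.161 in wt larvae (SD, n = 3 each).

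**Figure D2:**
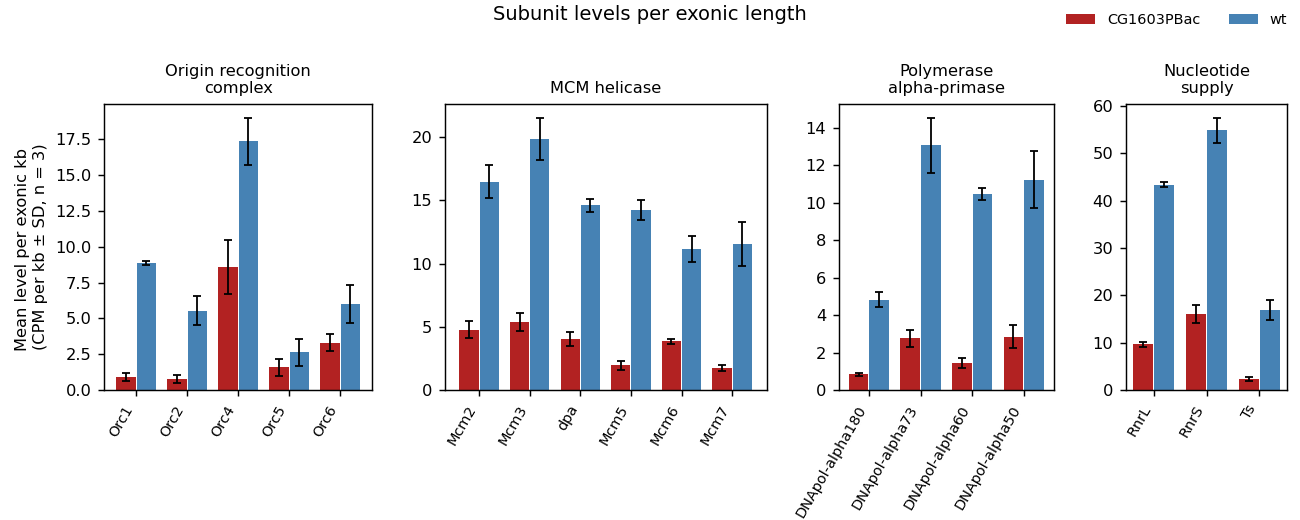
Mean level per kb of exon (CPM per kb, bars, with SD over 3 libraries) of the subunits of 3 complexes and the nucleotide supply genes, CG1603PBac in red at the left of wt in blue. Each panel has its own vertical axis starting at 0, and within the MCM ring Mcm5 and Mcm7 are the lowest in CG1603PBac larvae.

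The factors that activate the loaded helicase were more mixed. Mcm10, which is needed to start unwinding, had 1.96, 1.41 and 1.80 CPM in CG1603PBac larvae, against 9.69, 12.4 and 11.6 CPM in wt larvae (log2 fold change -2.70 ± 0.25, adjusted p = 4.22e-09). CDC45L (Cdc45), which travels with the helicase, had 17.2, 20.4 and 16.5 CPM in CG1603PBac larvae and 44.6, 40.1 and 41.4 CPM in wt larvae (log2 fold change -1.22 ± 0.12, adjusted p = 5.79e-09). The remaining activators here are the 4 subunits of GINS, which joins Cdc45 and the MCM ring. Sld5 had 4.09, 4.20 and 3.16 CPM in CG1603PBac larvae and 6.537, 8.08 and 8.17 CPM in wt larvae (log2 fold change -0.99 ± 0.25, adjusted p = 0.00133). Psf2 had 4.89, 5.92 and 6.95 CPM in CG1603PBac larvae and 10.6, 12.5 and 9.62 CPM in wt larvae (log2 fold change -0.88 ± 0.21, adjusted p = 0.000880).

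Psf1 was scarce, with 0.933, 0.829 and 0.948 CPM in CG1603PBac larvae and 2.32, 1.42 and 3.24 CPM in wt larvae. The fall in Psf1 (log2 fold change -1.36 ± 0.56, adjusted p = 0.0355) was the least certain of those called. It was lost when any library other than wt replicate 2 was left out, with values between -1.06 (without wt replicate 3, adjusted p = 0.141) and -1.40 (without CG1603PBac replicate 3, adjusted p = 0.0840). Psf3 was at 23.2, 22.1 and 25.6 CPM in CG1603PBac larvae and 23.6, 22.3 and 28.4 CPM in wt larvae, so the genotypes overlapped (log2 fold change -0.07 ± 0.13, adjusted p = 0.649), and the value turned positive without wt replicate 3 (0.03) and when libraries were scaled by their totals alone (0.32). In the annotation, 34.9% of the exonic bases of Psf3 lie opposite CG17841. Over the 12 helicase genes, ring and activators together, 11 fell and the median log2 fold change was -1.66.

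Polymerase alpha-primase, the complex that lays down the RNA-DNA primer of every new strand, fell as a whole. Its largest catalytic subunit, DNApol-alpha180, had 3.51, 3.70 and 4.28 CPM in CG1603PBac larvae, against 21.3, 24.4 and 21.3 CPM in wt larvae (log2 fold change -2.54 ± 0.17, adjusted p = 2.60e-11). The large primase subunit, DNApol-alpha60, had 2.16, 2.32 and 3.04 CPM in CG1603PBac larvae, against 18.0, 19.1 and 18.0 CPM in wt larvae (log2 fold change -2.86 ± 0.20, adjusted p = 4.25e-11). These falls were 5.81-fold and 7.28-fold. The accessory subunit DNApol-alpha73 had 4.73, 6.66 and 5.66 CPM in CG1603PBac larvae and 30.4, 26.0 and 24.6 CPM in wt larvae (log2 fold change -2.25 ± 0.16, adjusted p = 7.94e-11). The small, catalytic primase subunit, DNApol-alpha50, had 3.48, 5.39 and 4.54 CPM in CG1603PBac larvae and 16.0, 20.3 and 16.6 CPM in wt larvae (log2 fold change -1.98 ± 0.20, adjusted p = 1.5e-08). With a median log2 fold change of -2.39 and a summed level of 13.9, 18.1 and 17.5 CPM in CG1603PBac larvae against 85.7, 89.8 and 80.5 CPM in wt larvae, this was the complex with the lowest ratio of summed levels among those described here (0.193).

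The catalytic subunits of the polymerases that extend the primers fell less. DNApol-epsilon, taken as the catalytic subunit PolE1, had 6.60, 3.79 and 4.50 CPM in CG1603PBac larvae and 9.09, 14.4 and 15.8 CPM in wt larvae (log2 fold change -1.40 ± 0.24, adjusted p = 2.99e-05). DNApol-delta, the catalytic subunit of the lagging-strand polymerase, had 12.6, 11.6 and 8.07 CPM in CG1603PBac larvae and 16.6, 13.4 and 16.4 CPM in wt larvae (log2 fold change -0.53 ± 0.18, adjusted p = 0.0144). The DNApol-delta call was lost without CG1603PBac replicate 3 (-0.35, adjusted p = 0.111) and with scaling by library totals (-0.13, adjusted p = 0.526). Further subunits of these polymerases, in the list of other factors below and named here after their values were seen, changed unevenly. Pole2 (PolE2) fell further than either catalytic subunit (-2.81 ± 0.29, adjusted p = 3.70e-08). CG12018 (PolD2) fell as well (-0.98 ± 0.18, adjusted p = 4.47e-05), while Mes4 (PolE4) did not pass (-0.01 ± 0.27, adjusted p = 0.966). Within libraries, DNApol-alpha180 counts averaged 0.376 ± 0.135 of DNApol-delta counts in CG1603PBac larvae and 1.47 ± 0.307 in wt larvae (SD, n = 3 each).

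PCNA, the sliding clamp that holds polymerases on DNA and a common marker of S phase, had the highest level per kb of exon of all members in wt larvae (124 CPM per kb). It had 15.1, 17.4 and 19.8 CPM in CG1603PBac larvae, against 129, 137 and 132 CPM in wt larvae, and fell 7.59-fold (log2 fold change -2.92 ± 0.09, adjusted p = 3.44e-17). The clamp loader, replication factor C, places PCNA on DNA, and its subunits fell unevenly. RfC3 had 4.67, 3.95 and 3.45 CPM in CG1603PBac larvae and 17.9, 13.4 and 16.1 CPM in wt larvae (log2 fold change -1.97 ± 0.20, adjusted p = 1.93e-08). RfC38 had 13.1, 10.2 and 9.04 CPM in CG1603PBac larvae and 30.9, 28.6 and 30.6 CPM in wt larvae (log2 fold change -1.48 ± 0.15, adjusted p = 9.80e-09), and 25.2% of its exonic bases lie opposite Nup160. A further subunit, CG8142, is not a member but belongs to the list of other factors below. It fell as well (log2 fold change -1.22 ± 0.19, adjusted p = 7.08e-06) and is named after its values were seen. The falls of the other 2 subunits among the members were small. RfC4 had 28.8, 28.6 and 30.7 CPM in CG1603PBac larvae and 42.9, 38.6 and 34.2 CPM in wt larvae (log2 fold change -0.39 ± 0.11, adjusted p = 0.00302). Gnf1, the large subunit, had 27.7, 22.0 and 28.0 CPM in CG1603PBac larvae and 28.5, 31.8 and 37.8 CPM in wt larvae (log2 fold change -0.34 ± 0.13, adjusted p = 0.0245). With scaling by library totals the calls of RfC4 (0.00) and Gnf1 (0.05) were lost and their signs turned, and the Gnf1 call was also lost without wt replicate 3 (-0.24, adjusted p = 0.12) or CG1603PBac replicate 2 (-0.23, adjusted p = 0.154).

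Replication protein A coats single-stranded DNA at forks and also serves in repair and recombination. Its large subunit, RpA-70, had 40.6, 44.4 and 48.1 CPM in CG1603PBac larvae and 40.2, 43.4 and 43.7 CPM in wt larvae, with overlapping libraries (log2 fold change 0.07 ± 0.10, adjusted p = 0.555). RpA-70 passed the threshold as higher with scaling by library totals (0.46, adjusted p = 0.000267), a scaling that moved the median of all genes to 0.45. The middle subunit, RPA2, had 19.9, 24.8 and 20.8 CPM in CG1603PBac larvae and 30.9, 34.7 and 35.9 CPM in wt larvae (log2 fold change -0.63 ± 0.12, adjusted p = 8.77e-05), a call lost with library totals (-0.24, adjusted p = 0.0889). Against RpA-70 in the same library, PCNA counts were 0.372, 0.393 and 0.411 in CG1603PBac larvae and 3.21, 3.17 and 3.01 in wt larvae.

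Both enzymes that finish Okazaki fragments fell, by 2.99-fold for Fen1 and 3.26-fold for DNA-ligI. Fen1, the flap endonuclease, had 12.6, 12.0 and 12.3 CPM in CG1603PBac larvae and 37.1, 31.4 and 41.7 CPM in wt larvae (log2 fold change -1.58 ± 0.13, adjusted p = 5.63e-10). DNA-ligI, the ligase that seals the nicks, had 12.4, 16.3 and 12.0 CPM in CG1603PBac larvae and 40.0, 49.0 and 43.5 CPM in wt larvae (log2 fold change -1.70 ± 0.13, adjusted p = 2.28e-10). Over the 15 polymerase and fork genes, 14 fell and the median log2 fold change was -1.58.

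The 3 genes of nucleotide supply all fell by more than 2-fold, and their median on the log2 scale was -2.17. RnrL and RnrS encode the large and small subunits of ribonucleotide reductase, which makes deoxyribonucleotides. RnrL had 26.1, 25.1 and 23.1 CPM in CG1603PBac larvae, against 113, 111 and 111 CPM in wt larvae (log2 fold change -2.17 ± 0.08, adjusted p = 4.90e-16). RnrS had 28.5, 22.6 and 25.4 CPM in CG1603PBac larvae, against 84.0, 86.1 and 92.1 CPM in wt larvae (log2 fold change -1.78 ± 0.09, adjusted p = 2.87e-13). The libraries of each genotype lay close together for both genes. Ts, the thymidylate synthase that makes the DNA-specific base's nucleotide, had 3.86, 2.96 and 2.87 CPM in CG1603PBac larvae, against 20.1, 25.7 and 22.0 CPM in wt larvae, and fell 7.02-fold (log2 fold change -2.81 ± 0.19, adjusted p = 1.70e-11).

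**Figure D3:**
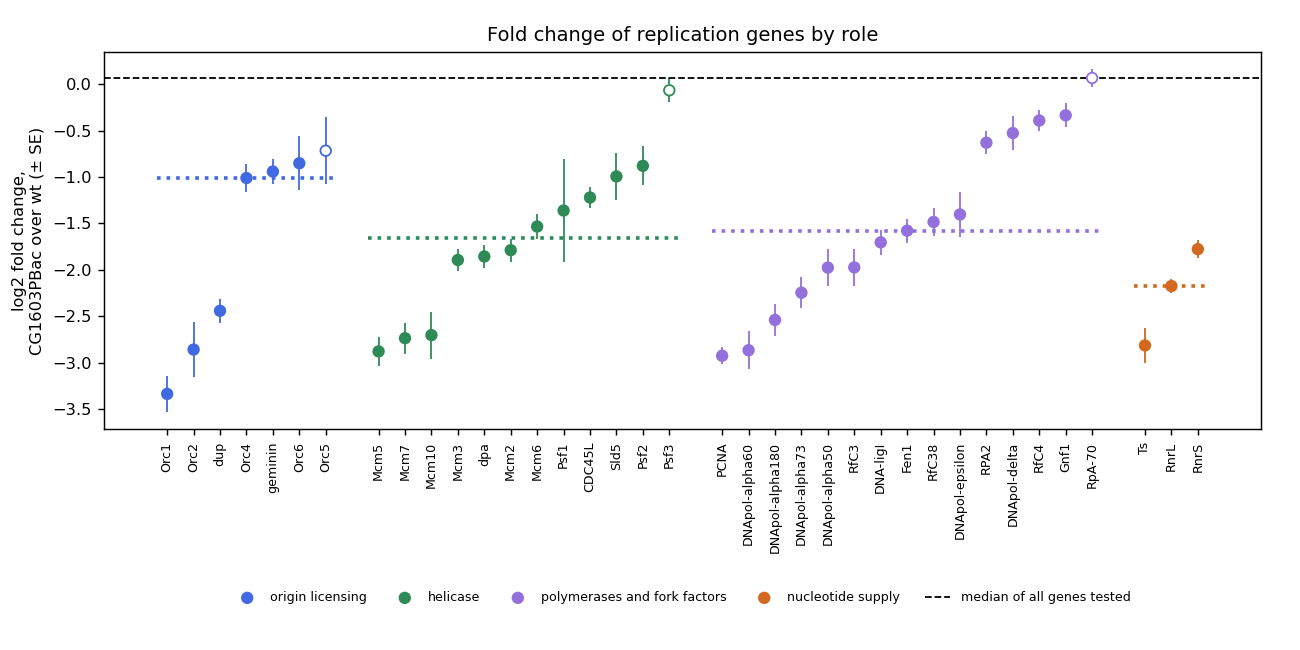
log2 fold change (CG1603PBac over wt, with SE) of the 37 tested replication genes in 4 classes, sorted within each class. Filled points passed the adjusted p threshold of 0.05, open points did not, dotted lines are class medians (-1.01, -1.66, -1.58 and -2.17) and the dashed line is the median of all genes tested (0.06).

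The class medians followed the order nucleotide supply, helicase, polymerases and fork factors, and origin licensing, with the lowest first, but the ranges of the classes overlapped and the classes were not tested against each other. The helicase and polymerase medians lay close and swapped places without CG1603PBac replicate 1 (-1.59 for helicase, -1.64 for polymerases and fork factors). They also did so, barely, without wt replicate 1 (-1.6114 and -1.6124). Licensing genes ran between -3.33 and -0.72, helicase genes between -2.88 and -0.07, polymerase and fork genes between -2.92 and 0.07, and nucleotide supply genes between -2.81 and -1.78 on the log2 fold change scale. The helicase and polymerase classes each held genes that fell by more than 2-fold and a gene near 0 (Psf3 and RpA-70). Ranked by log2 fold change among the 11306 genes tested, 17 of the 37 members lay within the lowest 5% and 30 within the lowest 20%. Orc1 ranked lowest of the members, at place 90. Across the 37 members the log2 fold change had little relation to the wt level (Pearson's r = -0.18, Spearman's rho = -0.13 with log2 CPM) or to exonic length (r = -0.22, rho = -0.23 with log2 length), as a description over genes that share the same 6 libraries.

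Of the members, 11 lie on 2R, 9 on 3R, 8 on 2L, 6 on 3L and 4 on X. A pair of them flank CG1603 (2R, 7513846 to 7516390, dm6). Orc1 (2R, 7522437 to 7525716, minus strand) lies 6.05 kb to the right, and dpa (2R, 7496702 to 7500145, minus strand) lies 13.7 kb to the left. In all, 21 tested genes other than CG1603 lie within 50 kb of it, of which 9 fell and 8 rose, and their median was 0.01 on the log2 scale. Over all genes tested, 34.9% fell and 34.8% rose. Any part of the insertion itself, or of the chromosome that carries it, in the levels of Orc1 and dpa was not tested.

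A further list held 31 factors of origins and forks, such as helicase partners, chromatin assembly factors and other nucleotide enzymes. Of these, 28 fell (90.3%, against 34.9% of all genes), none rose and 3 did not pass, and their median was -1.24 on the log2 scale. The lowest were CG2990 (Dna2), a nuclease and helicase of Okazaki fragments, with 0.644, 0.636 and 0.826 CPM in CG1603PBac larvae against 7.40, 11.1 and 7.29 CPM in wt larvae (log2 fold change -3.60 ± 0.32, adjusted p = 2.38e-09), and Claspin, a fork protection and checkpoint protein (-2.99 ± 0.25, adjusted p = 7.31e-10). Cdc6, the partner of ORC in helicase loading, averaged 7.20 ± 0.481 CPM in CG1603PBac larvae and 16.7 ± 2.36 CPM in wt larvae (SD, n = 3 each) and fell as well (log2 fold change -1.21 ± 0.18, adjusted p = 2.80e-06). The smallest falls called were those of Slbp, which binds histone mRNA (-0.39 ± 0.14, adjusted p = 0.0154, and 0.01 with library totals), and Pol32, a polymerase delta subunit (-0.56 ± 0.19, adjusted p = 0.0125, and -0.16 with library totals). The Slbp call was lost without wt replicate 1 (-0.30, adjusted p = 0.0840) and without CG1603PBac replicate 3 (-0.31, adjusted p = 0.0902), and the Pol32 call without CG1603PBac replicate 1 (-0.45, adjusted p = 0.0669) and without CG1603PBac replicate 3 (-0.51, adjusted p = 0.0527). The 3 that did not pass, named after their values were seen, included both parts of the kinase that fires origins, the Cdc7 gene l(1)G0148 (0.04 ± 0.07, adjusted p = 0.602) and its activator chif (0.26 ± 0.12, adjusted p = 0.0599). The other was Mes4 (-0.01 ± 0.27, adjusted p = 0.966). Of the exonic bases of chif, 19.4% are shared on the same strand with Hyls1.

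The regulators of S phase entry, a list that also holds inhibitors and repressors such as dap and Rbf, changed in both directions. Of 21 tested, 13 fell (61.9%, against 34.9% of all genes), 4 rose (19.0%, against 34.8% of all genes) and 4 did not pass. The median was -0.43 on the log2 scale. CycE, the cyclin that drives entry into S phase, had 5.28, 4.06 and 3.35 CPM in CG1603PBac larvae, against 15.8, 16.9 and 14.05 CPM in wt larvae (log2 fold change -1.88 ± 0.21, adjusted p = 5.31e-08). Its kinase partner cdc2c (Cdk2) had 10.1, 12.3 and 12.9 CPM in CG1603PBac larvae, against 39.9, 36.1 and 42.3 CPM in wt larvae (-1.74 ± 0.13, adjusted p = 9.50e-11). Of the exonic bases of cdc2c, 43.9% lie opposite CG17267. The cyclin and its kinase were the lowest of this list. Their inhibitor dap, a p27-like protein, had 11.0, 11.4 and 12.2 CPM in CG1603PBac larvae and 12.4, 13.7 and 15.8 CPM in wt larvae and did not pass (-0.28 ± 0.16, adjusted p = 0.139, and 0.11 with library totals). CycE counts averaged 0.371 ± 0.103 of dap counts in CG1603PBac larvae and 1.13 ± 0.212 in wt larvae (SD, n = 3 each).

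The transcription factors known to control replication genes had fold changes nearer 0 than the members' median. E2f (E2f1), the activating E2F, had 56.1, 58.5 and 53.7 CPM in CG1603PBac larvae and 73.5, 63.8 and 69.3 CPM in wt larvae (log2 fold change -0.30 ± 0.08, adjusted p = 0.00267), but the value was 0.10 and did not pass with library totals. Its partner Dp fell by 0.54 ± 0.10 on the log2 scale (adjusted p = 5.24e-05), a call lost with library totals (-0.14). The repressor Rbf, the fly retinoblastoma protein, fell by 0.92 ± 0.10 (adjusted p = 8.07e-08), and Dref, which binds the DNA replication-related element, had 54.2, 46.5 and 58.6 CPM in CG1603PBac larvae and 98.0, 94.8 and 98.9 CPM in wt larvae (-0.87 ± 0.08, adjusted p = 4.74e-09). E2f counts averaged 3.26 ± 0.501 of PCNA counts in CG1603PBac larvae and 0.520 ± 0.0525 in wt larvae (SD, n = 3 each). Of the 4 that rose, dm (Myc), a driver of growth, rose most, with 209, 217 and 201 CPM in CG1603PBac larvae against 69.0, 71.2 and 71.5 CPM in wt larvae (1.56 ± 0.06, adjusted p = 6.31e-16). Exonic bases of dm are shared with CR44999 on the same strand (20.3%) and lie opposite CG12535 (40.9%). Trf2, a partner of DREF, rose by 0.85 ± 0.10 (adjusted p = 1.01e-07), though not once the trend with exonic length was removed (0.10, adjusted p = 0.370). Myb (0.55 ± 0.06), nearly all of whose exonic bases are shared with CG46440, and ago (0.32 ± 0.14, adjusted p = 0.04997, just under the threshold) were the other two and are named after their values were seen. SuUR was listed at 0 in all libraries and shares all exonic bases with CG45101.

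**Figure D4:**
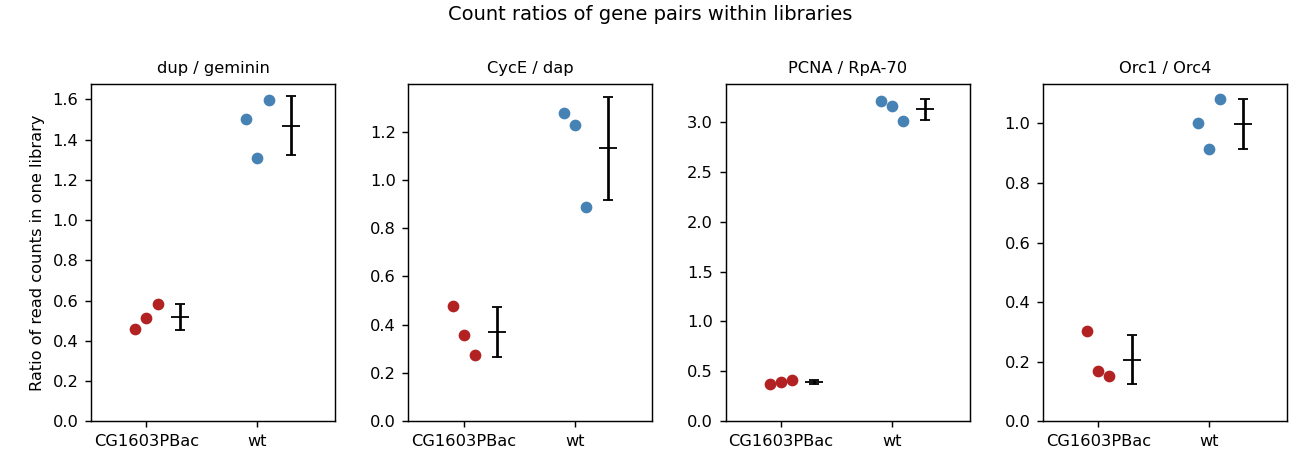
Ratio of read counts of 4 gene pairs within each library (points, CG1603PBac in red at the left of wt in blue), with the mean and SD over 3 libraries as a black bar. In each pair the CG1603PBac libraries lie below all wt libraries, as in dup over geminin, with 0.459 to 0.584 in CG1603PBac and 1.31 to 1.596 in wt larvae. The pairs were chosen after the values were seen, so this order is no test. RnrL over dnk, not drawn, had the reverse order, with 1.12 to 1.23 in CG1603PBac and 0.953 to 1.07 in wt larvae.

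Genes of mitosis were set beside those of replication because endoreplicating tissues copy their DNA without entering mitosis. Of 32 mitosis genes, 18 fell (56.25%, against 34.9% of all genes), 2 rose (6.25%, against 34.8% of all genes) and 12 did not pass. The list's median was -0.80 on the log2 scale. The lowest were CycB, the mitotic cyclin (1.06 ± 0.422 CPM in CG1603PBac and 7.07 ± 2.64 CPM in wt larvae, SD, n = 3 each, log2 fold change -2.74 ± 0.37, adjusted p = 1.10e-06), and ial, the Aurora B kinase (-2.51 ± 0.34, adjusted p = 1.46e-06). The 2 that rose act at centromeres, cal1 (0.84 ± 0.13, adjusted p = 5.64e-06) and Cenp-C (0.58 ± 0.21, adjusted p = 0.0170). The Cenp-C call was lost without CG1603PBac replicate 1 (0.51, adjusted p = 0.0738), without CG1603PBac replicate 3 (0.52, adjusted p = 0.0795) and with the length trend removed (0.26, adjusted p = 0.277).

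A list of DNA repair and checkpoint genes, some of which also act in S phase, held calls in both directions. Of 26 tested, 4 fell (15.4%, against 34.9% of all genes), 8 rose (30.8%, against 34.8% of all genes) and 14 did not pass, and the median was 0.28 on the log2 scale. The highest were mre11, with 60.9, 62.7 and 66.3 CPM in CG1603PBac larvae against 15.9, 11.5 and 14.4 CPM in wt larvae (2.19 ± 0.12, adjusted p = 3.56e-13), and its partner rad50 (1.43 ± 0.11, adjusted p = 2.86e-10), both of the complex that senses double-strand breaks. A further subunit of that complex, nbs, did not pass and its libraries overlapped (0.28 ± 0.13, adjusted p = 0.0681). It is named after its values were seen. The lowest were mei-9, a nuclease of excision repair (-0.91 ± 0.22, adjusted p = 0.000783), and grp, the Chk1 checkpoint kinase (-0.87 ± 0.09, adjusted p = 2.03e-08). Rad1 was listed at 0 in all libraries and shares all exonic bases with Sws1. No difference between the lists was tested.

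**Figure D5:**
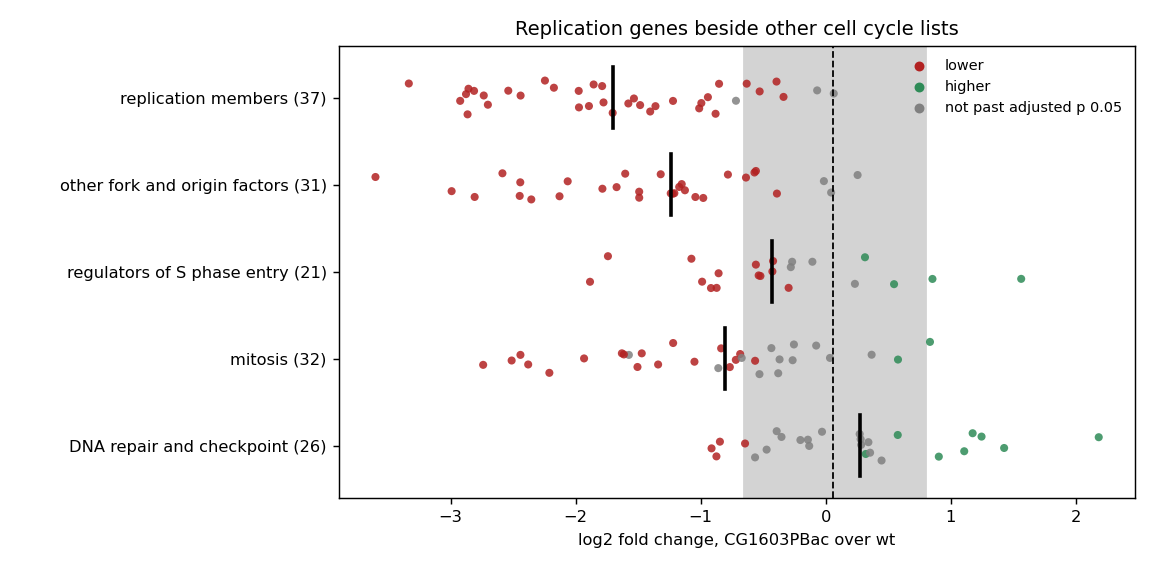
log2 fold change (CG1603PBac over wt) of each tested gene of the replication members and 4 further lists, with the number of genes in parentheses, red for lower, green for higher and grey for genes that did not pass. Black bars are list medians (-1.70, -1.24, -0.43, -0.80 and 0.28 downwards), the dashed line is the median of all genes (0.06) and the grey band spans their middle quartiles (-0.65 to 0.81).

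Markers of several tissues moved beside these results, in different directions. The counts of markers called stand beside 34.9% of all genes that fell and 34.8% that rose. How far each marker is restricted to its tissue was not tested. Among neuroblast markers 5 of 10 fell and 3 rose, and their summed level was 269 to 279 CPM in CG1603PBac larvae and 155 to 181 CPM in wt larvae. That sum was carried by the 3 that rose, brat, grh and pros (244 to 251 CPM in CG1603PBac and 113 to 132 CPM in wt larvae). The other 7 summed to 24.6 to 28.8 CPM in CG1603PBac larvae and 41.9 to 48.7 CPM in wt larvae. Of these, dpn, ase, wor, mira and nerfin-1 were called lower, and insc and klu did not pass. This split was made after the values were seen, and leaving out the genes that rose favours a lower sum. The neuroblast factor dpn was at 0.676, 1.08 and 0.559 CPM in CG1603PBac larvae and 1.53, 2.97 and 2.70 CPM in wt larvae (log2 fold change -1.63 ± 0.58, adjusted p = 0.0163). Of 14 imaginal disc markers 11 rose and none fell, with a summed level of 354 to 361 CPM in CG1603PBac larvae and 216 to 239 CPM in wt larvae. The largest part of that sum came from sd, with a mean of 127 CPM in CG1603PBac and 90.1 CPM in wt larvae. The risen vg was scarce in wt larvae (0.597, 0.414 and 0.0338 CPM). In al every CG1603PBac library lay below every wt library, but it did not pass (-0.58 ± 0.28, adjusted p = 0.0688). All 10 markers of neurons, which no longer divide, rose, with a summed level of 1084 to 1122 CPM in CG1603PBac larvae and 392 to 434 CPM in wt larvae, among them elav (1.60 ± 0.08, adjusted p = 5.76e-14).

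Of the endoreplicating tissues, all 9 muscle markers fell, with a summed level of 22266 to 22391 CPM in CG1603PBac larvae and 59257 to 63647 CPM in wt larvae. The fall of sls was slight (log2 fold change -0.09 ± 0.04, adjusted p = 0.0311), with a mean of 991 CPM in CG1603PBac and 1056 CPM in wt larvae. Of 5 tested fat body markers 4 fell and none rose (619 to 671 CPM in CG1603PBac and 2256 to 2608 CPM in wt larvae), and Fbp1 was at 0 in all libraries. Most of the fat body sum came from Rfabg, with a mean of 516 CPM in CG1603PBac and 2155.5 CPM in wt larvae. Midgut markers were split, with 4 of 7 lower and 3 higher (2272 to 2319 CPM in CG1603PBac and 3180 to 3533 CPM in wt larvae), as were salivary gland markers, with 3 of 5 lower and 1 higher (148.2 to 157 CPM in CG1603PBac and 178 to 206 CPM in wt larvae). Among 7 germline markers 3 fell (42.9%), including vas (-2.03 ± 0.43, adjusted p = 0.000277), and 2 rose (28.6%), near the shares of all genes (34.9% and 34.8%). Their summed level was 28.4 to 34.3 CPM in CG1603PBac and 31.5 to 32.8 CPM in wt larvae. The part of tissue composition, and of the larger share of reads that did not align in CG1603PBac libraries, in the levels of the replication genes was not tested.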

How the data were processed

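Poly(A) RNA of 3 CG1603PBac and 3 wt samples of larvae was sequenced as 100 bp paired reads. Quality was checked by the authors with FastQC, alignment to dm6 used STAR, and HTSeq gave the deposited values, which are raw counts per gene without normalization. The annotation version and strand setting are not given in the sources used here. Of the reads, 54.8 ± 0.332% in CG1603PBac and 79.5 ± 0.442% in wt libraries were counted in genes, and the categories that name no gene entered neither library sizes nor tests.

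Genotypes were compared with edgeR 4.0.16 on TMM-scaled counts (quasi-likelihood F test, robust, in R 4.3.3), after filterByExpr (minimum count 10, minimum total 15), with Benjamini-Hochberg adjustment over 11306 genes. Changes called 2-fold had a log2 value beyond 1 and an adjusted p under 0.05. The biological coefficient of variation was 0.127. Replicate pairs differed by more than sampling noise (chi-square per gene 7.46 to 17.0), so each library was 1 replicate. Levels per kb used union exonic lengths of the Ensembl annotation in dm6 coordinates, to which 16549 of 16727 symbols matched. Scripts were tested on simulated data with known changes.

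The members and lists were chosen with earlier results of these data known. Every member is named, with the 2 lowest and 2 highest called genes of each further list, CycE, E2f1, Dp, Rbf, dap, Dref, Cdc6, dpn, elav and vas. The alternatives were DESeq2 1.42.0, its size factors in edgeR, library totals, no filter, a minimum of 10 counts in each library, limma-voom (limma 3.58.1), a replicate block, each library left out and removal of the length trend (loess, span 0.5) with and without the block. Promoter motifs were not analysed here.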

Additional observations from a re-analysis of the deposited data

Results flagged for a closer look

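Reads that enter no comparison of the report differed between the genotypes in 3 categories of the deposited count files. Unaligned reads were 31.4 ± 0.445% of all reads in CG1603PBac libraries and 8.77 ± 0.354% in wt libraries (SD, n = 3 each). Reads in no gene made up 3.83 ± 0.195% in CG1603PBac and 2.40 ± 0.190% in wt libraries, and reads that aligned to more than 1 place 6.81 ± 0.0195% in CG1603PBac and 5.16 ± 0.188% in wt libraries. In each category every CG1603PBac library lay above every wt library. What these reads are was not tested.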

How the results depend on the processing

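All 34 members called lower were also called lower with DESeq2, with its size factors in edgeR, without the filter, with a minimum of 10 counts in each library, with limma-voom and with the length trend removed. The setting with the largest effect was scaling by library totals, under which the median of all genes was 0.45, 2585 genes were lower, 28 of the 34 members stayed lower (DNApol-delta, Gnf1, Orc6, Psf1, RPA2 and RfC4 were lost), 2 members (Psf3 and RpA-70) and 2 of the other fork and origin factors were called higher, and the median log2 fold change was -1.31 for the members, -0.62 for origin licensing, -1.27 for the helicase, -1.19 for polymerases and fork factors and -1.78 for nucleotide supply. Signs turned with library totals for Psf3 (0.32), Gnf1 (0.0547), RfC4 (0.0020), E2f (0.10), dap (0.11) and Slbp (0.0063), and for Psf3 without wt replicate 3 (0.0277, against -0.1462 without wt replicate 2). With that minimum and with limma-voom 1 of the other factors was called higher. With the length trend removed the medians were -1.76 for the members, -1.71 for polymerases and fork factors and -0.0656 for all genes, and with the replicate block added -1.77, -1.71 and -0.0541. Leaving out 1 library at a time gave 31 to 34 members lower, a member median between -1.73 and -1.62 and 0 to 1 of the other factors higher. Samples with the same replicate number did not deviate together (correlations of 0.01, -0.02 and -0.01), and with the replicate block 33 of the 34 members stayed lower, Psf1 being lost (-1.29, adjusted p = 0.0780). Among the members the standard error was largest for Psf1 (0.56), Orc5 (0.36), Orc2 (0.29) and Orc6 (0.29). The cause of these changes was not tested.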
